A study of Mus musculus with 6 samples.

Results

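A set of 9 genes that glucocorticoid hormones are known to induce was followed through the single-nucleus RNA and chromatin data of the Foxr2 mouse models: Fkbp5, Sgk1, Zbtb16, Tsc22d3, Per1, Ddit4, Arrdc2, Plin4 and Klf9. They were taken by symbol, and all 9 were found among the 32285 genes of the features files, each under 1 identifier. The tissue was brain of C57BL/6J mice given Foxr2 by in utero electroporation, in which plasmids are pulsed into neural stem cells of the embryonic ganglionic eminences. In the Foxr2 alone model a piggyBac transposon carried Foxr2, and the Foxr2 p53LOF model also received Cas9 with a guide against p53. The transposon drives FOXR2 with a V5 tag and GFP from the broadly active CAG promoter. Both models thus carried the Foxr2 transposon, and no library without it was analysed here. Each library also held nuclei of the host brain. The tissue is labelled as brain tumor and was taken when mice were symptomatic. The study describes seizures and nonproliferative lesions in Foxr2 alone mice, and high-grade tumors in Foxr2 p53LOF mice. Time of day at collection and steroid levels are not given in the sources used here, and a difference between these libraries and a difference between the genotypes cannot be told apart.

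Glucocorticoids are adrenal steroids that rise with stress and with the time of day. They enter cells and bind the glucocorticoid receptor (Nr3c1), which moves to the nucleus and binds DNA at a palindromic site, often in introns and far from promoters, where it raises transcription of nearby genes. In the brain, oligodendrocytes, astrocytes, microglia and neurons all carry the receptor. Several of the 9 genes are also induced by other signals: Ddit4 by hypoxia and p53, Per1 by the circadian clock, and Sgk1 by cell stress.

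Count matrices were used for 1 Foxr2 p53LOF library (10379 barcodes, 96929539 UMIs) and 1 Foxr2 alone library (10096 barcodes, 59719847 UMIs), of which 8359 and 8316 nuclei were kept. The libraries shared 140 barcodes, 94 of them kept in both. Of Foxr2 alone replicate 2, with 1650 barcodes, the peak list was used for presence of peaks only, and counts were not analysed here. With counts of 1 library per genotype used here there is no replicate spread and no test was made, and every interval below is a 95% interval that covers counting error only. Foxr2 was read at 42.6 CPM (UMIs assigned to it per 1000000 in the library or class) in the Foxr2 p53LOF library, against 3.61 CPM for Foxr2 alone. Trp53 RNA, at 33.6 and 12.9 CPM, does not check the loss of function.

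In oligodendrocyte-like nuclei, 8 of the 9 genes were at least 2-fold higher in Foxr2 alone than in Foxr2 p53LOF. The folds of these 8 genes ran from 2.27 for Per1 to 10.6 for Ddit4, and Tsc22d3 did not differ by 2-fold. Of all 9705 genes with at least 10 CPM in 1 of the libraries, 20.6% were at least 2-fold higher in Foxr2 alone. The log2 ratio (Foxr2 p53LOF over Foxr2 alone) had a median of -1.84 over the 9 genes and -0.06 over all genes tested. These genes and the lists below were chosen with earlier results of these data known. Their contrast with all genes is thus a description and no independent test. The class held 1525 nuclei in Foxr2 p53LOF and 3020 in Foxr2 alone, with 10 of 10 oligodendrocyte markers raised in the main cluster of each library. These nuclei came almost entirely from 1 cluster per library, led by St18, Mog and Aspa in Foxr2 p53LOF and by Ptgds, Hapln2 and Mal in Foxr2 alone. Summed oligodendrocyte markers were at 21714 CPM in Foxr2 p53LOF, against 17580 CPM in Foxr2 alone. Summed neuron markers moved with the members, being at 255 CPM in Foxr2 p53LOF, against 701 CPM in Foxr2 alone, in this class, at 606 and 2532 CPM in OPC-like and at 1029 and 2349 CPM in astrocyte-like nuclei, and OPC markers in oligodendrocyte-like nuclei were at 290 and 52.7 CPM. The part of such RNA in the members' values was not tested. Foxr2 itself was at 28.0 and 6.36 CPM in the class.

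The first of the genes, Fkbp5 (ENSMUSG00000024222, chromosome 17, 28398753 to 28486149, minus strand, build mm10), encodes a co-chaperone of the receptor that lowers its affinity for hormone. Its level was 96.5 CPM (95% interval 87.2 to 107) in Foxr2 p53LOF, against 445 CPM (424 to 466) in Foxr2 alone. The difference was 4.61-fold (4.13 to 5.15). Tsc22d3 (ENSMUSG00000031431, chromosome X, 140539528 to 140600522, minus strand), which encodes the leucine zipper protein GILZ that restrains inflammatory transcription factors, stood apart from the other members. Its level was 117 CPM (107 to 128) in Foxr2 p53LOF, against 107 CPM (96.6 to 117) in Foxr2 alone, with overlapping intervals.

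Sgk1 and Ddit4 act in growth and ion signalling. Sgk1 (ENSMUSG00000019970, chromosome 10, 21882184 to 21999903, plus strand) encodes a kinase of ion channels and transporters that glucocorticoids induce in oligodendrocytes. Its level was 430 CPM (410 to 451) in Foxr2 p53LOF, against 1980 CPM (1936 to 2024) in Foxr2 alone, a difference of 4.6-fold (4.37 to 4.85). Ddit4 (ENSMUSG00000020108, chromosome 10, 59949675 to 59951770, minus strand) encodes REDD1, an inhibitor of mTORC1. With 25 CPM (20.4 to 30.4) against 265 CPM (249 to 282), it differed by 10.6-fold (8.64 to 13.1), the largest fold of the 9 genes in CPM. Relative to genes of like length, its log2 ratio of -2.42 was smaller in size than that of Fkbp5 (-2.45). It was also smaller than that of Sgk1 (-2.62) when Sgk1 was placed by its full span.

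Zbtb16, Klf9 and Per1 act on transcription. Zbtb16 (ENSMUSG00000066687, chromosome 9, 48651797 to 48836225, minus strand), which encodes the zinc finger repressor PLZF, was at 242 CPM (227 to 258) and 552 CPM (529 to 576), a 2.28-fold difference (2.11 to 2.46). Klf9 (ENSMUSG00000033863, chromosome 19, 23141226 to 23168129, plus strand), a Krüppel-like factor that hormones induce in neurons and in myelinating cells, was at 152 CPM (140 to 164) and 542 CPM (520 to 566), or 3.57-fold (3.26 to 3.91). Per1 (ENSMUSG00000020893, chromosome 11, 69095108 to 69109965, plus strand), a co-repressor in the circadian clock, was at 56.5 CPM (49.4 to 64.3) and 128 CPM (117 to 140). Intervals of the libraries, which cover counting error only, did not overlap for any of these genes. The share of all tested genes without overlap was not counted.

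The last pair of members has metabolic or trafficking roles. Arrdc2 (ENSMUSG00000002910, chromosome 8, 70835129 to 70839720, minus strand), of the arrestin domain family, had 62.4 CPM (54.9 to 70.5) in Foxr2 p53LOF, against 308 CPM (290 to 325) in Foxr2 alone. Plin4 (ENSMUSG00000002831, chromosome 17, 56100587 to 56109948, minus strand), a lipid droplet coat protein, was at 63.8 CPM (56.3 to 72.1) and 197 CPM (183 to 212). Their folds were 4.93 (4.30 to 5.67) and 3.09 (2.68 to 3.57).

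**Figure D1:**
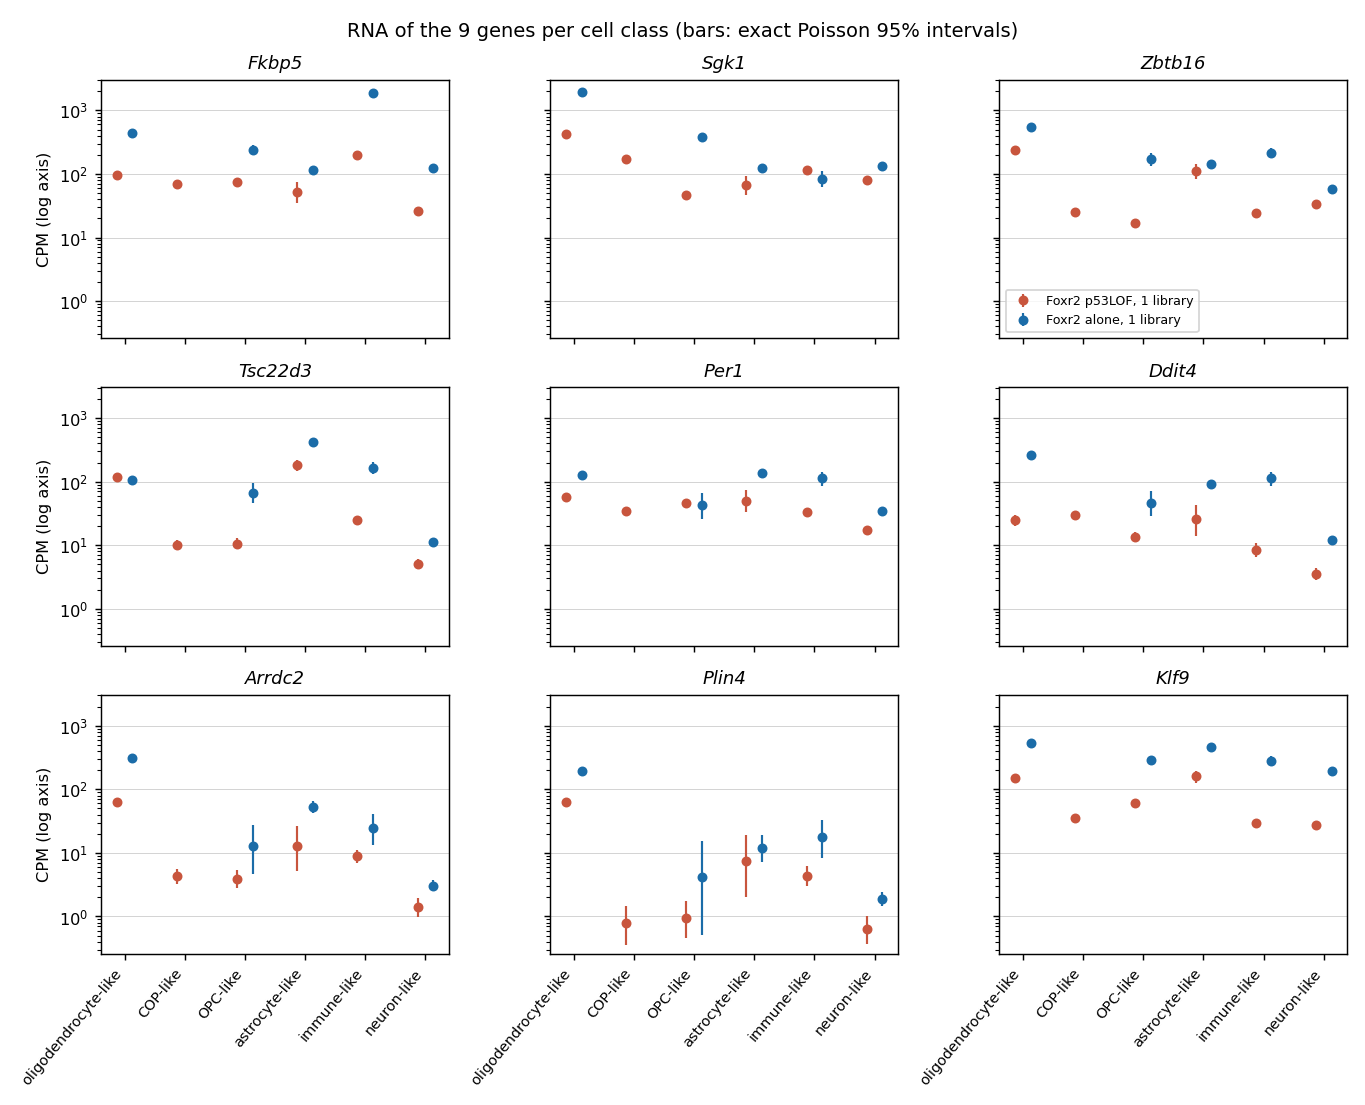
RNA level of each of the 9 genes (CPM, log axis) by cell class, with orange points for the Foxr2 p53LOF library, blue points for the Foxr2 alone library and bars for exact Poisson 95% intervals. Blue lies above orange in most panels and classes, while Tsc22d3 in oligodendrocyte-like (117 and 107 CPM), Sgk1 in immune-like (117 and 84.5 CPM) and Per1 in OPC-like nuclei (45.7 and 42.2 CPM) do not follow.

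Depth per nucleus differed between the libraries, with a median of 2448 UMIs per oligodendrocyte-like nucleus in Foxr2 p53LOF and 1172 in Foxr2 alone. With every nucleus sampled down to 1000 UMIs, which dropped 14 and 914 nuclei of lower depth, a Ddit4 UMI was found in 2.18% of nuclei of Foxr2 p53LOF (exact binomial interval 1.51 to 3.05) and in 22.6% of those of Foxr2 alone (20.8 to 24.4). Unthinned, the shares were 6.03% and 27.6%. For Sgk1 the thinned shares were 35.3% (32.9 to 37.8) and 80.8% (79.0 to 82.4), and unthinned 61.1% and 86.3%. The RNA was thus found in more nuclei, and was not carried by a few. In neuron-like nuclei, the class lowest for Ddit4 in both libraries, the thinned shares were 0.222% and 1.11%, with medians of 9949 and 7304 UMIs. For Sgk1 the class with the lowest CPM gave 4.55% (24.1% unthinned) in OPC-like nuclei of Foxr2 p53LOF, with a median of 7585 UMIs, and 6.07% (8.96% unthinned) in immune-like nuclei of Foxr2 alone, with a median of 1131 UMIs. Plin4 had 7.08% and 16.0% in oligodendrocyte-like nuclei, beside 0.0888% and 0.166% in neuron-like nuclei. The median log2 ratio of the 9 genes in thinned nuclei was -1.84.

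When oligodendrocyte-like nuclei of each library were clustered again without the 9 genes, each library gave 3 groups of at least 100 nuclei. The 9 genes together were at 750, 1381 and 1471 CPM in the groups of Foxr2 p53LOF and at 3898, 3944 and 5061 CPM in those of Foxr2 alone. For 8 of the genes, every group of Foxr2 p53LOF was below every group of Foxr2 alone, as was so for 28.5% of all 9705 genes tested. Sgk1, for example, was at 178 to 527 CPM in the former and at 1618 to 2298 CPM in the latter. Tsc22d3 was the exception, at 76.5 to 162 CPM and 97.6 to 134 CPM. These groups share a library and are not replicates.

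Gene length moved with the ratio between the libraries. When tested genes were cut by genomic span into 5 groups of like size, length group 1 is the shortest and 5 the longest. In group 1 (0.374 to 10.4 kb), the median log2 ratio was -0.98, and in group 5 (89.8 to 2390 kb) it was 0.42. A length was found for 97.2% of the 9705 genes. Ddit4, Arrdc2 and Plin4 were in group 1, in which 49.0% of genes were at least 2-fold higher in Foxr2 alone. Sgk1 and Zbtb16 were in group 5, where 8.90% were, and Fkbp5 and Tsc22d3 in group 4, where 8.16% were. Sgk1 has 6 starts and was placed by its full span of 118 kb, and shorter spans from its later starts were not tested. Taken relative to the median of their own length group, the log2 ratios were -2.62 for Sgk1, -2.45 for Fkbp5, -2.42 for Ddit4, -1.84 for Klf9, -1.61 for Zbtb16, -1.32 for Arrdc2, -0.88 for Per1, -0.64 for Plin4 and -0.11 for Tsc22d3. Per1 and Plin4 were no longer 2-fold apart on that scale, and the part of length in their ratios was not tested. Mitochondrial transcripts made up 0.269% of the UMIs of the class in Foxr2 p53LOF and 0.398% in Foxr2 alone, and their part was not tested either.

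**Figure D2:**
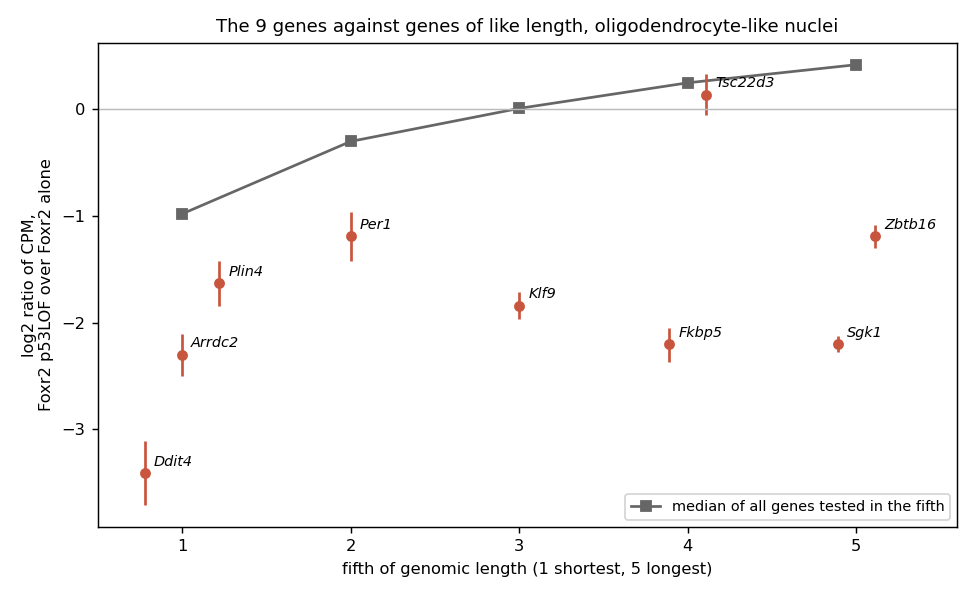
log2 ratio of CPM (Foxr2 p53LOF over Foxr2 alone) in oligodendrocyte-like nuclei against length group, with points and exact 95% bars for the 9 genes and squares for the median of all tested genes in each group. Placed by full genomic span, Sgk1, Zbtb16 and Fkbp5 lie far below the median of their length groups (0.42 and 0.25). Short genes as a whole were already shifted to -0.98.

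The difference was not limited to oligodendrocyte-like nuclei. In immune-like nuclei, 8 of the 9 genes were at least 2-fold higher in Foxr2 alone, where 22.3% of all tested genes were, and the median log2 ratio of the members was -2.71. Fkbp5 was highest in this class in both libraries, with 199 CPM (189 to 209) in Foxr2 p53LOF, against 1867 CPM (1756 to 1983) in Foxr2 alone, a 9.39-fold difference (8.67 to 10.2). Sgk1 was the exception, at 117 CPM (109 to 125) and 84.5 CPM (62.3 to 112). In Foxr2 alone, Sgk1 was thus lowest in the class where Fkbp5 was highest.

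The immune-like class mixed cell kinds, as its largest cluster, with 1300 nuclei from Foxr2 p53LOF and 8 from Foxr2 alone, had Wdfy4 and Adgre1 among its leading genes, with P2ry12 at 306 CPM. The cluster with most P2ry12, a microglial receptor, in each library held 510 nuclei for Foxr2 p53LOF (P2ry12 at 1132 CPM) and 416 for Foxr2 alone (717 CPM). Between these clusters 8 members were again at least 2-fold higher in Foxr2 alone, against 25.2% of all tested genes. Klf9 was at 9.37 CPM in Foxr2 p53LOF, against 291 CPM in Foxr2 alone, a fold of 31.0 (18.2 to 56.8). Zbtb16 was at 7.49 and 225 CPM, or 30-fold (16.5 to 59.6). Summed oligodendrocyte markers in immune-like nuclei were at 1916 CPM in Foxr2 p53LOF, against 869 CPM in Foxr2 alone, summed neuron markers at 292 and 713 CPM and summed OPC markers at 1247 and 107 CPM. Foxr2 was at 32.3 CPM in Foxr2 p53LOF and had 0 of 568366 UMIs in Foxr2 alone, and the mitochondrial share was 0.268% and 0.518%. Their part in the members' values was not tested.

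In OPC-like nuclei (oligodendrocyte precursor cells), 7 members were at least 2-fold higher in Foxr2 alone, where 26.2% of all tested genes were, and Per1 was at 45.7 and 42.2 CPM. Summed OPC markers (6594 and 11617 CPM) and COP markers (934 and 2340 CPM) were higher in Foxr2 alone, as most members were. Astrocyte markers (3065 and 2133 CPM) and Foxr2 (72.5 and 8.44 CPM) were higher in Foxr2 p53LOF. The part of these values was not tested. Most of the 1189 nuclei of Foxr2 p53LOF in this class came from a cluster with Hmga2 among its leading genes, which held 2 nuclei of Foxr2 alone. A second OPC-like cluster, led by Neu4, Cspg4 and Pdgfra, held 94 from Foxr2 p53LOF and 171 from Foxr2 alone. Within it Fkbp5 was at 80.2 and 241 CPM (3.00-fold, 1.95 to 4.79), Klf9 at 80.2 and 288 CPM (3.59-fold, 2.34 to 5.69) and Sgk1 at 213 and 384 CPM (1.80-fold, 1.36 to 2.41). Of the 8 members with at least 10 CPM in this mixed cluster, 4 were at least 2-fold higher in Foxr2 alone, against 23.0% of all tested genes. Among these 4, Tsc22d3 rested on 4 UMIs in Foxr2 p53LOF (5.53-fold, 1.96 to 21.5) and Ddit4 on 2 (7.60-fold, 1.87 to 66.7). The log2 ratio was below 0 for all 8 and for 59.4% of all tested genes, but the interval of the fold held 1 for Per1 (0.802 to 5.52) and Arrdc2 (0.283 to 18.1). Sgk1 differed by 8.26-fold in the whole class and by 1.80-fold in the mixed cluster.

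Among astrocyte-like nuclei (113 in Foxr2 p53LOF and 424 in Foxr2 alone), 6 members were at least 2-fold higher in Foxr2 alone, against 20.8% of all tested genes. The libraries held different astrocyte-like clusters, 62 and 46 nuclei of Foxr2 p53LOF in a pair led by A2m and 423 nuclei of Foxr2 alone in another, although Etnppl, Slc39a12 and Acss3 were among the leading genes of all 3. Between them summed OPC markers (3381 and 1704 CPM), Foxr2 (96.6 and 19.3 CPM) and the mitochondrial share (1.46% and 0.801%) differed too, and their part was not tested. Tsc22d3 was highest in this class in both libraries. Here it was at 182 CPM (148 to 222) in Foxr2 p53LOF, against 413 CPM (381 to 447) in Foxr2 alone, or 2.27-fold (1.83 to 2.84), unlike in oligodendrocyte-like nuclei. Zbtb16 was at 110 CPM (83.4 to 141) and 141 CPM (123 to 162), with overlapping intervals.

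For neuron-like nuclei the libraries held different neurons, led by Slc17a6, Sim1 or Slc6a3 in Foxr2 p53LOF and by Drd2, Drd1, Slc17a7 or Sst in Foxr2 alone. Klf9 was at 27.7 CPM (25.7 to 29.8) and 195 CPM (190 to 199), a 7.03-fold difference (6.50 to 7.61). In all, 5 members were at least 2-fold higher in Foxr2 alone, against 19.0% of all tested genes. Summed astrocyte markers (227 and 673 CPM), OPC markers (1605 and 869 CPM), neuron markers (21576 and 13584 CPM) and Foxr2 (11.8 and 2.57 CPM) differed as well, and their part was not tested. Across 3 clusters of Foxr2 p53LOF and 5 clusters of Foxr2 alone, 5 of the 7 tested members were lower in every cluster of Foxr2 p53LOF, as were 25% of all 10599 genes tested. Klf9 ran from 17.4 to 40.1 CPM in the former and from 68.7 to 283 CPM in the latter, and Fkbp5 from 16.5 to 27.6 CPM and from 58.4 to 190 CPM. The ranges of Sgk1 and Zbtb16 overlapped. The clusters are neuron types of 1 library each, so type and library cannot be told apart.

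COP-like nuclei (committed oligodendrocyte precursors) were found in Foxr2 p53LOF alone, 1278 in number, in a cluster led by Hmga2. Sgk1 was at 173 CPM (166 to 181) there, second to the oligodendrocyte-like nuclei of that library, and Plin4 at 0.776 CPM (0.355 to 1.47). Across classes, Sgk1, Zbtb16, Arrdc2 and Plin4 were highest in oligodendrocyte-like nuclei in both libraries, and for each of these genes the interval of the second class lay below. Klf9 was highest in astrocyte-like and Ddit4 in COP-like nuclei of Foxr2 p53LOF, but both were highest in oligodendrocyte-like nuclei of Foxr2 alone. Those first ranks in Foxr2 p53LOF overlapped the second (160 and 152 CPM for Klf9, and 30.4 and 26 CPM for Ddit4). Per1 in astrocyte-like and oligodendrocyte-like nuclei, at 137 and 128 CPM in Foxr2 alone, likewise did not differ beyond its intervals.

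Other genes of the pathway were then read in oligodendrocyte-like nuclei. The receptor gene Nr3c1 was at 224 CPM in Foxr2 p53LOF, against 192 CPM in Foxr2 alone (log2 ratio 0.22, 0.08 to 0.36). Medians of all tested genes ran from -0.98 in the shortest length group to 0.42 in the longest. Nr3c1 was not compared with genes of its own length, so its direction is not read. None of the 9 tested genes of the receptor and its handling was 2-fold apart, with a median log2 ratio of -0.02. Of all tested genes, 20.6% were at least 2-fold higher in Foxr2 alone and 13.2% in Foxr2 p53LOF. Nr3c2, the mineralocorticoid receptor, which also binds corticosterone, was at 137 and 208 CPM.

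Among 17 tested genes of a second list known to rise with glucocorticoids, Cdkn1a included, 8 were at least 2-fold higher in Foxr2 alone (20.6% of all tested genes were). In Foxr2 p53LOF 1 gene, Nedd9, was (13.2% were), and the median log2 ratio of the list was -0.99. The 20.6% is over genes of all lengths, with 49.0% in the shortest length group and 8.90% in the longest. Neither this list nor the clock genes were compared with genes of like length. Mt1, a metallothionein, was at 161 and 949 CPM (5.88-fold), its neighbour Mt2 at 69.5 and 156 CPM (2.25-fold), and Nfkbia, the inhibitor of NF-kappaB, at 46.2 and 514 CPM (11.1-fold). Of the 9 tested clock genes, 6 were at least 2-fold higher in Foxr2 alone, again beside 20.6% of all tested genes. They were Per2, Per3, Dbp, Nr1d1, Hlf and Ciart, with folds from 2.12 (Per3) to 8.61 (Hlf). Dbp, an output gene of the clock, was at 3.19 CPM in Foxr2 p53LOF, against 22.1 CPM in Foxr2 alone. Several clock genes respond to glucocorticoids and follow the time of day, which cannot be told apart here.

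The lists for other signals differed among themselves. Of 4 tested hypoxia genes, Bnip3 was 2.28-fold higher in Foxr2 alone, while Ndrg1 was at 117 CPM in Foxr2 p53LOF, against 52.1 CPM in Foxr2 alone. Of 7 tested p53 targets, 4 were at least 2-fold higher in Foxr2 alone (Ccng1, Eda2r, Trp53inp1 and Phlda3, 2.10 to 3.14-fold), beside 20.6% of all tested genes, and none was so in Foxr2 p53LOF. Their median log2 ratio was -1.07. The 20.6% is over genes of all lengths (49.0% in the shortest length group), and the lists for other signals were not compared with genes of like length. For Zmat3 (-0.83 to 0.22) and Bax (-0.85 to 0.01) the interval of the log2 ratio held 0, and Mdm2 lay the other way, at 191 and 104 CPM (log2 ratio 0.87, 0.70 to 1.05), without reaching 2-fold. Of 4 tested immediate early genes, which mark recent activation of a cell, 2 were at least 2-fold higher in Foxr2 p53LOF, beside 13.2% of all tested genes. These were Fos (19.4 against 1.53 CPM) and Arc (11.0 against 3.31 CPM), while Egr1 had a log2 ratio of 0.69 (0.00 to 1.39) and Junb one of -0.36 (-1.01 to 0.29). Neither of the 2 tested heat shock genes was 2-fold apart.

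**Figure D3:**
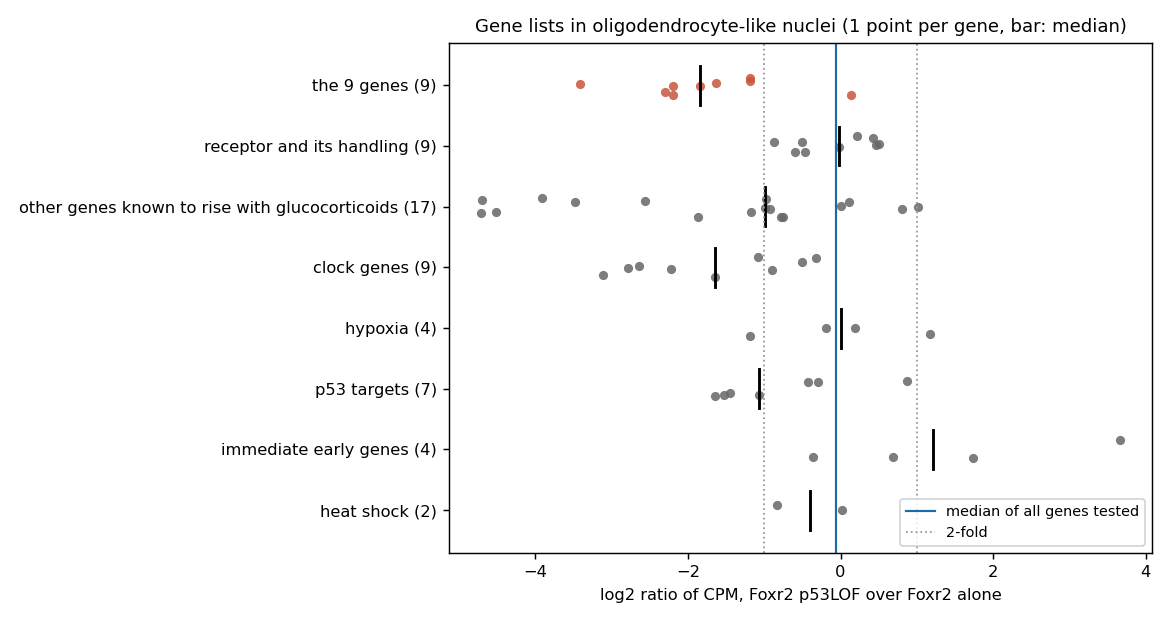
log2 ratio of CPM in oligodendrocyte-like nuclei (Foxr2 p53LOF over Foxr2 alone) for each tested gene of the 9 members and 7 other lists, with black bars for list medians, a blue line for the median of all tested genes and dotted lines at 2-fold. The members (median -1.84) and the clock genes (median -1.64) lie to the left of the blue line at -0.06. The receptor list (median -0.02) lies on it and the immediate early genes (median 1.21) to its right. Ratios are not taken relative to genes of like length.

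Over 11 combinations of class and library, the mean scaled profile of the 9 genes was most like that of Selenoo (Pearson's r 0.96) and of Fth1, Yif1a, Tmem258 and Ech1 (each 0.95). The members' own r with this mean ran from 0.68 (Sgk1) to 0.95 (Arrdc2). The 11 points share 2 libraries and their differences in gene length, and r describes these points only. Fth1, the ferritin heavy chain, was at 727 CPM in the oligodendrocyte-like nuclei of Foxr2 p53LOF, against 3303 CPM in Foxr2 alone.

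Cdkn1a (ENSMUSG00000023067, chromosome 17, 29090979 to 29100722, plus strand), which encodes the cell cycle inhibitor p21, is a target of p53 and is also raised by glucocorticoids. Its level in oligodendrocyte-like nuclei was 20.1 CPM (16.0 to 25) for Foxr2 p53LOF, against 522 CPM (500 to 545) for Foxr2 alone. Whether its RNA was found in the same nuclei as the 9 genes was asked within each library, in nuclei thinned to 1000 UMIs. In Foxr2 alone, 790 of 2106 nuclei (37.5%) held a Cdkn1a UMI. The summed level of the 9 genes was 4851 CPM in these and 4335 CPM in the other nuclei, a ratio of 1.12 (1.07 to 1.17). In the 3 groups of Foxr2 alone nuclei clustered again, Cdkn1a was at 597, 395 and 472 CPM. The 9 genes together were at 5061, 3944 and 3898 CPM in the same groups. The part of these groups in the ratio was not tested.

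For 2 genes the interval of the ratio lay above 1, and the share of all tested genes with such an interval was not counted. Fkbp5 was at 497 CPM with and 382 CPM without a Cdkn1a UMI (ratio 1.30, 1.14 to 1.49), and Sgk1 at 2179 and 1870 CPM (1.17, 1.09 to 1.24). For the other 7 genes the interval of the ratio held 1, from 0.906 (0.735 to 1.11) for Plin4 to 1.17 (0.986 to 1.39) for Ddit4. Sgk1 had the same ratio as Ddit4 on more counts, 1719 and 2461 UMIs against 231 and 329, so its interval was narrower. None of the 9 genes was 2-fold higher in nuclei with a Cdkn1a UMI, as 1.07% of 8945 tested genes were. Without Sgk1 the ratio of the sum was 1.08 (1.03 to 1.15).

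By the number of Cdkn1a UMIs, the sum was 4335 CPM in nuclei with 0, 4729 CPM with 1, 5014 CPM with 2 and 5559 CPM (4974 to 6195) with 3 or more, in 1316, 583, 148 and 59 nuclei. Over the 2106 nuclei Pearson's r between the sum and Cdkn1a was 0.12 and Spearman's rho 0.11, and pairs of members had r from -0.04 to 0.06. Nuclei in which Cdkn1a was not drawn can still hold its RNA, and all nuclei here were drawn from 1 library. In Foxr2 p53LOF, 28 of 1511 nuclei (1.85%) held a Cdkn1a UMI, and the ratio of the sum was 1.0 (0.702 to 1.38). Without Sgk1 that ratio was 0.705 (0.410 to 1.13). There 13.5% of 7675 tested genes were at least 2-fold higher in the nuclei with a Cdkn1a UMI.

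At 1000 UMIs, whether a nucleus shows a Cdkn1a UMI is in large part a matter of the draw, so the ratio within a library can be drawn toward 1 and cannot be set against the fold between libraries. The median r between pairs of members was 0.01 in each library. Nuclei of Foxr2 alone without a Cdkn1a UMI held 4335 CPM of the 9 genes, against 1322 CPM in such nuclei of Foxr2 p53LOF. Members of the second glucocorticoid list had a median log2 ratio of -0.01 in the split by Cdkn1a in Foxr2 alone, and p53 targets one of -0.09, beside -0.01 over all tested genes. In Foxr2 p53LOF the split rests on 28 nuclei, in which 1 UMI of a gene is already 35.8 CPM (as for Per1) and a gene at 0 is set at 3 counts, so no list is read there.

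**Figure D4:**
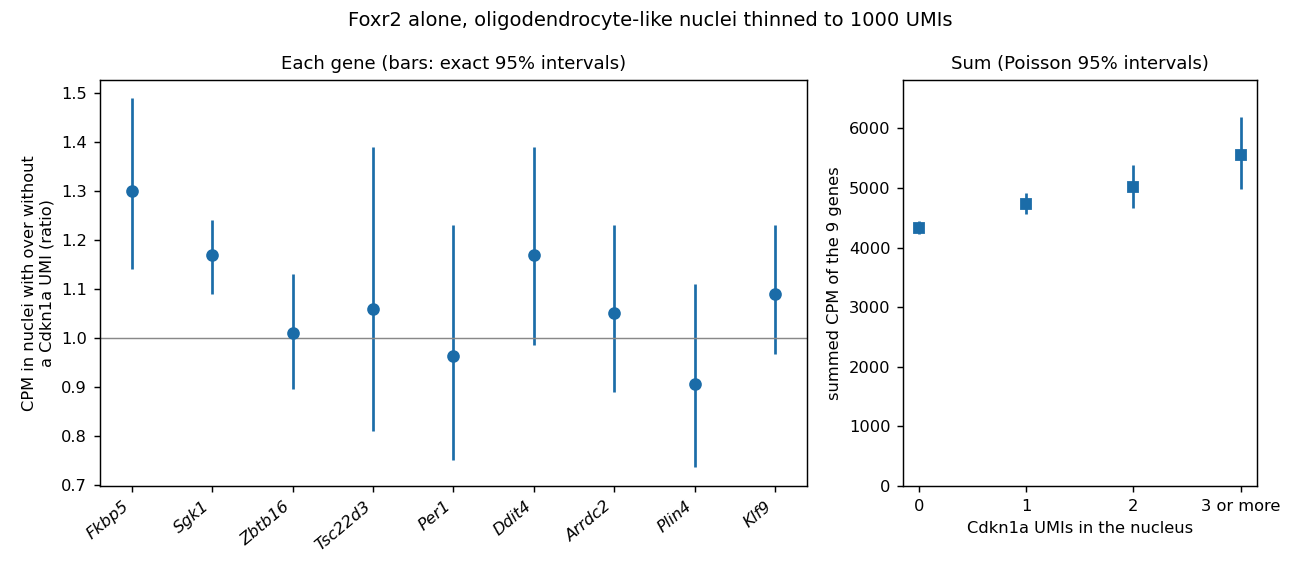
Foxr2 alone, oligodendrocyte-like nuclei thinned to 1000 UMIs. Left, ratio of CPM in 790 nuclei with over 1316 nuclei without a Cdkn1a UMI for each gene, with exact 95% intervals. Right, summed CPM of the 9 genes by number of Cdkn1a UMIs, with Poisson 95% intervals. Fkbp5 and Sgk1 are the genes whose intervals lie above 1, and the sum runs from 4335 to 5559 CPM. The share of all tested genes with such an interval was not counted.

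Open chromatin at the members was compared in the same oligodendrocyte-like nuclei, with ATAC counts scaled as CPM of all counts in peaks of the class (8099281 counts in Foxr2 p53LOF and 20800445 in Foxr2 alone). A promoter peak was one that overlapped 1 kb either side of a RefSeq start. Peaks were called in each library on its own, and levels were compared only where peaks of both overlapped. The 9 genes had 19 promoter peaks, of which 15 were paired and 13 reached 10 CPM in 1 library.

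At this depth no promoter peak of the members was 2-fold apart in oligodendrocyte-like nuclei. Of all 9393 promoter peaks tested there, 1.63% were at least 2-fold higher in Foxr2 alone and 2.92% in Foxr2 p53LOF, shares near the 0 of 13. The median log2 ratio of the 13 was -0.27 (-0.13 over all promoter peaks). The peak at the Fkbp5 start (chr17:28485704-28486585) was at 72.8 CPM (67.1 to 79.0) in Foxr2 p53LOF and 87.5 (83.6 to 91.7) in Foxr2 alone, a 1.2-fold difference beside the 4.61-fold of its RNA. At the Ddit4 start it was 121 and 150 CPM, or 1.24-fold, beside 10.6-fold for RNA. For the peaks at or nearest the starts of Arrdc2, Klf9, Plin4 and Zbtb16 the folds were 1.31, 1.16, 1.1 and 1.23.

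In other classes 0 to 2 promoter peaks of the members were at least 2-fold higher in Foxr2 alone. Such small counts cannot be told apart from the shares of all promoter peaks given beside them. In OPC-like nuclei 2 of 12 tested member peaks were at least 2-fold higher in Foxr2 alone (8.01% of all promoter peaks), that of Plin4 at 12 and 76.0 CPM (6.33-fold, 4.93 to 8.10) and that of Zbtb16 at 22.1 and 67.5 CPM (3.06-fold, 2.41 to 3.84). In immune-like nuclei 2 of 11 were (3.57% of all), that of Zbtb16 at 12.8 and 36.7 CPM (2.86-fold, 2.24 to 3.65) and that of Klf9 at 54.3 and 110 CPM (2.03-fold, 1.78 to 2.31). For astrocyte-like nuclei it was 1 of 12 (5.68% of all), the Sgk1 peak at its most downstream start at 32.3 and 69.1 CPM (2.13-fold, 1.41 to 3.36), and for neuron-like nuclei 0 of 11 (1.81% of all). In neuron-like nuclei the median log2 ratio of the 11 peaks was 0.43, on the Foxr2 p53LOF side, as it was for all promoter peaks (0.37). The Fkbp5 promoter peak there was at 50 CPM (46.8 to 53.2) in Foxr2 p53LOF, against 28.2 CPM (26.8 to 29.6) in Foxr2 alone, while its RNA was 4.81-fold higher in Foxr2 alone.

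Sgk1 has 6 RefSeq starts, and its promoter peaks differed among themselves in oligodendrocyte-like nuclei. The peak at its most downstream start was at 118 and 122 CPM (1.04-fold, 0.961 to 1.12). The next one upstream, 21992776 to 21993513, was at 39.6 and 68.1 CPM (1.72-fold, 1.52 to 1.95). Another, 21990996 to 21991885, was called in both Foxr2 alone libraries (33.6 CPM in replicate 1) and not in Foxr2 p53LOF. That at the most upstream start, from which the length group of Sgk1 was taken, was at 7.90 and 5.38 CPM. A start between the first pair of these peaks has the only match to the receptor's site among the 16 RefSeq promoter windows found for 8 of the genes, and its window lies in neither peak. The Plin4 promoter peak also holds a match.

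The receptor binds palindromes built on GNACANNNTGTNC, where N is any base. This pattern of 13 bases reads the same on both strands, and was searched in the reference. It was present in 0.475% of 32851 RefSeq promoter windows of 300 bases (250 before to 50 after a start). Among 175726 peaks of either library (median 895 bases), 2.28% held it. A match is a string of letters and no evidence of binding. The Sgk1 window is shown with the match in capitals, since it is the one promoter match (RefSeq, GRCm38.p6, chr10:21993640-21993939, plus strand).

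Sgk1 promoter: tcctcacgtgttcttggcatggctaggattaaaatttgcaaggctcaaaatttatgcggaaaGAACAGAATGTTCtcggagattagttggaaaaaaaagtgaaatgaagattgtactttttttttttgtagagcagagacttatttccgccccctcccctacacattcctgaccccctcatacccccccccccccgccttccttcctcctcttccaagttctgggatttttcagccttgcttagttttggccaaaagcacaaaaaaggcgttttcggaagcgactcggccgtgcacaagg

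Outside promoters, some peaks within 10 kb of the genes differed. Of 98 such peaks that lay over 1 kb from any RefSeq start, 56 were paired and 34 reached 10 CPM. Of these, 5 were at least 2-fold higher in Foxr2 alone and 1 in Foxr2 p53LOF, against 5.22% of 14745 peaks outside promoters higher in Foxr2 alone and 9.84% higher in Foxr2 p53LOF. The 5 were a peak in an intron of Fkbp5, 3 peaks in introns of Zbtb16 and a peak upstream of Plin4. The 1 peak higher in Foxr2 p53LOF lay in an intron of Sgk1 (21930606 to 21931556), at 13.1 and 5.72 CPM. The Plin4 peak (chr17:56119909-56120868) was at 6.30 CPM (4.69 to 8.28) and 32.2 CPM (29.8 to 34.7), or 5.11-fold (3.84 to 6.93). Of the 98 peaks, 26 were called in Foxr2 alone replicate 1 and not in Foxr2 p53LOF, and 16 the other way, beside 39.0% and 24.7% of all 157142 peaks outside promoters.

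The Fkbp5 peak lies 65.7 kb into the gene (chr17:28419963-28420921) and was called in all 3 libraries. It was at 25.1 CPM (21.7 to 28.8) in Foxr2 p53LOF and 62.1 (58.7 to 65.5) in Foxr2 alone, or 2.48-fold (2.13 to 2.89). In immune-like nuclei, where Fkbp5 RNA was highest, the same peak was at 35.2 and 85.6 CPM (2.43-fold, 2.08 to 2.83). In astrocyte-like nuclei it was at 41.4 and 46.4 CPM, with an interval of the fold that held 1 (0.764 to 1.69). It holds a match of the pattern, and 200 bases around it are shown (GRCm38, chr17:28420228-28420427, plus strand).

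Fkbp5 intron: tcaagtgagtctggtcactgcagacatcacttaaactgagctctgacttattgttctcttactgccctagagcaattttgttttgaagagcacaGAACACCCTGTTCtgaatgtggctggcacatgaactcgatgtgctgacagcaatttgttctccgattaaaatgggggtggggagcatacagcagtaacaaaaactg

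The Zbtb16 peak with the widest difference, 112 kb into the gene (chr9:48723334-48724283), was at 11.5 CPM (9.27 to 14.1) in Foxr2 p53LOF and 62 (58.6 to 65.4) in Foxr2 alone, or 5.40-fold (4.37 to 6.73). In immune-like nuclei it was at 2.12 and 52.9 CPM, a 24.9-fold difference (16.7 to 38.4). Neuron-like nuclei had it at 23.8 and 21.7 CPM, with no difference beyond the interval of the fold (0.820 to 1.02). A second Zbtb16 peak (48744790 to 48745650) was at 8.77 and 36.8 CPM in oligodendrocyte-like nuclei. The last (48748964 to 48749853) was at 10.2 and 21.4 CPM. Of the 5 peaks at least 2-fold higher in Foxr2 alone, that of Fkbp5 was in the peak list of Foxr2 alone replicate 2, and the 3 of Zbtb16 and that of Plin4 were not. The second and last of these Zbtb16 peaks and the Plin4 peak hold no match. The first Zbtb16 peak holds a match, shown with its surroundings (chr9:48723610-48723809, plus strand).

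Zbtb16 intron: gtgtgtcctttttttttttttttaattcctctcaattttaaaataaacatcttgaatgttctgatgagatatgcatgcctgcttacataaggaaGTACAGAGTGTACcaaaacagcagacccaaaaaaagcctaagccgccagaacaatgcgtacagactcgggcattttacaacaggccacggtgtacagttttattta

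Matches also lay in peaks that were less than 2-fold apart. Among them were Zbtb16 intron peaks at 48735981 to 48736821, 48737236 to 48738127 and 48739903 to 48740826. Their folds were 1.47, 1.32 and 1.55, and the last held 2 matches. For Per1 a peak upstream of the nearest start, in an intron of its longest model, was at 82.4 CPM (76.2 to 88.8) in Foxr2 p53LOF and 108 (103 to 112) in Foxr2 alone, a fold of 1.31. For Sgk1 a peak 6.10 kb downstream of its last start was at 66.5 and 104 CPM, or 1.57-fold (1.43 to 1.73). An Arrdc2 peak 6.00 kb downstream of its start, at 66.7 and 113 CPM (1.69-fold, 1.54 to 1.86), held 2 matches. Sequences from these Per1, Sgk1 and Arrdc2 peaks are given so that the matches can be compared with those above (chr11:69096983-69097182, chr10:22000257-22000456 and chr8:70833554-70833753, plus strand).

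Per1 upstream: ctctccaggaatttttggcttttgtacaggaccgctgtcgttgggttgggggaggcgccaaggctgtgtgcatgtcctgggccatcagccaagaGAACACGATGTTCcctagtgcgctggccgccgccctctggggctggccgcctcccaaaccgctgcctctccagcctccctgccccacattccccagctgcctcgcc
Sgk1 downstream: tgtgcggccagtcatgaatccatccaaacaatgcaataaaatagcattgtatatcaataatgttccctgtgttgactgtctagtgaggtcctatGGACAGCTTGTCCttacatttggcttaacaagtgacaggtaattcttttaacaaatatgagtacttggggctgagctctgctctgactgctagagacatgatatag
Arrdc2 downstream: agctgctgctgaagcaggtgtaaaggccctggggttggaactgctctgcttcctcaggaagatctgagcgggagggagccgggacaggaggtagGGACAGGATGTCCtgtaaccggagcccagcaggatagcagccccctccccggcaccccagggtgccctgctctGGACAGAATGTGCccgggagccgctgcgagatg

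Matches at Plin4 (56092368 to 56093228) and Sgk1 (21889052 to 21889877) lay in peaks called in Foxr2 p53LOF and not in Foxr2 alone replicate 1. Matches at Fkbp5 (28477701 to 28478562) and Sgk1 (21952243 to 21953139) lay in peaks called in Foxr2 alone replicate 1 and not in Foxr2 p53LOF. In total 12 of the 98 member peaks outside promoters (12.2%) held the pattern, beside 2.28% of all peaks. Over the whole genome, of the 769 tested peaks outside promoters that were at least 2-fold higher in Foxr2 alone, 12.7% held it. The share was 2.62% of the 12525 peaks less than 2-fold apart and 1.38% of the 1451 peaks at least 2-fold higher in Foxr2 p53LOF. Median lengths of these groups were 920, 915 and 927 bases. The mineralocorticoid, androgen and progesterone receptors read the same pattern, and the member peaks were not chosen independently of genes known to bind the receptor.

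Ddit4 had a peak 3.93 kb downstream of its start (chr10:59947384-59948296) that was called in Foxr2 alone replicate 1 only, at 63.0 CPM (59.7 to 66.5). Another, upstream (59957450 to 59958177), was at 33.4 CPM in that library. Neither was in the list of Foxr2 alone replicate 2 or held the pattern. Other Ddit4 peaks went the other way. A promoter peak (59950339 to 59950966) was called in Foxr2 p53LOF and in neither Foxr2 alone list. Its interval in oligodendrocyte-like nuclei of Foxr2 p53LOF was 9.71 to 14.6 CPM. A downstream peak (59942947 to 59943740), at 11.1 CPM in Foxr2 p53LOF, was also called in Foxr2 alone replicate 2 but not in replicate 1. A peak that was not called has no count, so no fold can be given. Of the 26 member peaks outside promoters called in Foxr2 alone replicate 1 and not in Foxr2 p53LOF, 4 were in the list of replicate 2, and over the genome 24.4% of 61308 such peaks were. That list of 99112 peaks came from a library of fewer barcodes, and its cell classes were not analysed here.

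**Figure D5:**
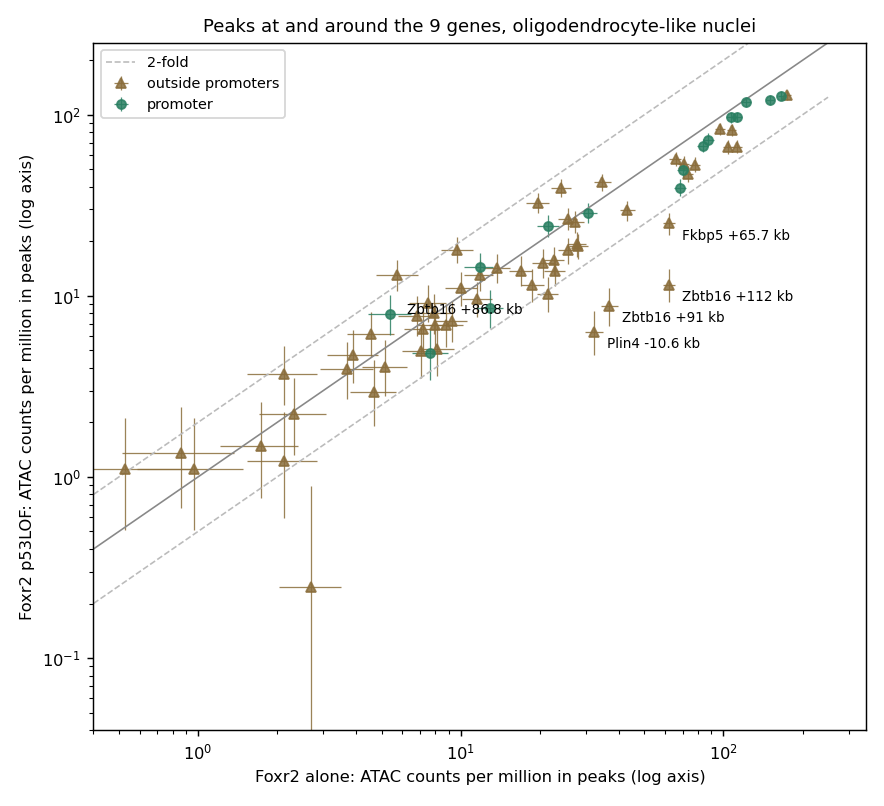
ATAC CPM (log axes) in paired peaks at and around the 9 genes, Foxr2 alone against Foxr2 p53LOF, oligodendrocyte-like nuclei, with circles for promoter peaks, triangles for peaks outside promoters, Poisson 95% bars, a solid line for equal levels and dashed lines at 2-fold. No promoter peak that reached 10 CPM lies beyond the dashed lines, and the labelled triangles are the 5 peaks at least 2-fold higher in Foxr2 alone, with their distance from the gene's start.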

How the data were processed

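Nuclei of mouse brain were profiled for RNA and open chromatin by the droplet Multiome assay. The values deposited by the authors are raw counts (UMIs for genes, transposition events for peaks), made per library with Cell Ranger ARC 2.0.0 on mm10 plus vectors, with no further normalization. Nuclei were filtered by the limits of the study's methods (start site enrichment and nucleosome signal were not used), with peak counts divided by 2 as fragments. Doublets were removed with Scrublet in scanpy 1.11.5 (353 and 540 nuclei), and both libraries were clustered together (Leiden, resolution 0.5, seed 100) with the members, lists and vectors left out of the 2000 variable genes. Clusters were named from markers, and clusters holding a second kind of cell were split by a rule set after the data were seen. A cluster of 112 Foxr2 p53LOF nuclei led by T cell genes stayed unnamed, and endothelial-like and fibroblast-like nuclei were under 100 per library.

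UMIs were summed per class and library and given as CPM. Intervals are exact at 95% (Poisson, conditional binomial for ratios, Clopper-Pearson for shares). PCR and droplet effects are not covered. A gene was tested with at least 10 CPM in 1 library, and called at 2-fold. A count of 0 was set at 3 for all-gene ratios, and no fold is given for such a member. In the Cdkn1a split a gene also needed 20 UMIs in all. Thinning drew 1000 UMIs per nucleus without replacement. Peaks overlapping by 1 base were paired. RefSeq starts and sequences come from GRCm38.p6, the same assembly as mm10. The size rule and intervals were tested on simulated data. The members, lists and alternatives were chosen with earlier results of these data known. Named list genes are those past the 2-fold rule in oligodendrocyte-like nuclei, or the 4 with most CPM where a list had more than 8. Nedd9, Nr3c1, Nr3c2, Mdm2 and marker genes outside that rule were named after their values were seen.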

Additional observations from a re-analysis of the deposited data

How the results depend on the processing

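The main results held under most alternatives: filters at 1000 genes and 1000 fragments, limits on peak counts, doublets kept, Leiden resolution 1.0, means over nuclei, centring on all genes, no minimum CPM and a 1.5-fold rule. The median log2 ratio of the 9 genes in oligodendrocyte-like nuclei ran from -1.88 to -1.75 over these, and the count of members 2-fold apart stayed within 1.5 times its value in every class. Centring within groups of gene length, added after the data were seen, gave a median of -1.61 with Sgk1 placed by its full span. The promoter peak where that span starts was at 7.90 and 5.38 CPM, beside 118 and 122 CPM at its most downstream start. The median with a shorter span of Sgk1 was not tested. Without thinning, the ratio of the summed members in nuclei with over without a Cdkn1a UMI in Foxr2 alone fell to 1.04, and it was 1.1 to 1.16 under the other settings. At resolution 1.0 the immune-like class fell below 100 nuclei in 1 library and gave no value. With filters at 1000 genes and 1000 fragments, Plin4 had a log2 ratio of -0.94. The median log2 ratio of promoter peaks was -0.30 to -0.15 over other windows, another scaling and doublets kept. No paired analysis was possible because counts of only 1 library per genotype were analysed here, so no replicate could be left out either, and depth limits the values of small clusters and of the 28 nuclei with a Cdkn1a UMI in Foxr2 p53LOF.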
